A study of Mus musculus with 4 samples.

Results

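The genes that encode the proteins of the cytosolic ribosome were compared between wild-type peritoneal B1a cells and wild-type splenic follicular B2 cells. They were taken by gene symbol alone: symbols that start with Rpl or Rps followed by a digit, together with Rplp0, Rplp1, Rplp2 and Rpsa, without the kinase genes named Rps6k and without pseudogene symbols that contain -ps. This gave 87 of the 20599 gene symbols that were quantified. Of these, 77 encode a canonical ribosomal protein, 43 of the large subunit, 31 of the small subunit and 3 of the stalk of the large subunit. A further 9 are paralogs or retrotransposed copies of a canonical gene. The last, Rps19bp1, carries the symbol because its protein binds Rps19 and is not itself a ribosomal protein.

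B1a cells are innate-like B lymphocytes that are abundant in the peritoneal cavity, and follicular B2 cells are the main B lymphocytes of the spleen. Both groups came from C57BL/6 mice of wild-type genotype, littermate controls of Dnmt3a-deficient animals, without treatment. B1a cells (n = 2 libraries) were sorted from peritoneal washes as CD23- IgM+ CD5+ B cells, and B2 cells (n = 2 libraries) were sorted from spleens as CD21+ B cells with high IgD and low IgM. The sample labels give an age of 4 weeks for all mice, whereas the methods give an older age for the donors of B2 cells and a lower number of sorted cells for some B1a libraries. The cell type thus changed together with the tissue and, if the methods hold, with age, and these cannot be told apart. Likewise, in bulk libraries a smaller number of cells of a type cannot be told apart from less RNA per cell.

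A ribosome holds a single copy of most of its proteins, bound to ribosomal RNA, and cells keep the mRNAs of these proteins at high and similar levels. The small subunit decodes the mRNA, the large subunit forms the peptide bond, and the stalk, built from Rplp0 and pairs of Rplp1 and Rplp2, recruits the elongation factors. Most of these mRNAs begin with a terminal oligopyrimidine (TOP) tract, a C at the cap followed by a run of C and U, through which mTOR signaling and the RNA-binding protein Larp1 set their translation. Ribosome assembly further needs RNA polymerase I, which transcribes ribosomal RNA, and a large set of processing and assembly factors, many of which are known targets of the transcription factor Myc.

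The libraries held 11578785 and 11558489 counts for B1a and 11032732 and 18588623 counts for B2, and fewer genes had 1 or more counts in B1a (11290 and 12456) than in B2 (14223 and 12934). Levels are given as CPM, counts scaled to a common library size by TMM normalization, for comparisons of a gene between libraries, and as TPM, which also divides by transcript length, for comparisons between genes. The follicular markers Fcer2a and Cr2 summed to between 153 and 162 CPM in B1a and between 1902 and 1942 CPM in B2 libraries, and 5 B1a markers summed to between 893 and 1182 CPM in B1a and between 75.3 and 75.8 CPM in B2 libraries, in the direction of the labels. The 6 pan-B-cell markers summed to between 5665 and 6072 CPM in B1a and between 4623 and 4688 CPM in B2. Sums of markers of other cells also differed between the groups for some lists, whereas those of erythroid and T cell markers overlapped. Macrophage markers, all 8 above 3 counts in every library, summed to between 216 and 247 CPM in B1a and between 65.3 and 68.2 CPM in B2. Erythroid markers ranged from 78.8 to 504 CPM in B1a and from 36.1 to 80.8 CPM in B2, mast cell markers from 9.80 to 39.3 CPM in B1a and from 0 to 0.941 CPM in B2, where Cma1, Mcpt4 and Tpsb2 had no counts. T cell markers lay between 80.8 and 127 CPM in B1a, where Cd4 and Thy1 had no counts, and between 102 and 108 CPM in B2. Neutrophil markers, S100a8, S100a9, Retnlg and Mpo among them, were at 0 in B1a and between 1.30 and 6.64 CPM in B2. Plasma cell markers, with Tnfrsf17 at 0 counts in every library, lay between 378 and 580 CPM in B1a and between 284 and 306 CPM in B2. Of the 5 quantified, only 2 were above 3 counts in both B1a libraries, against 4 in both B2 libraries. Proliferation markers lay between 330 and 337 CPM in B1a and between 239 and 260 CPM in B2. Of these 8, 6 were above 3 counts in both B1a libraries and 8 in both B2 libraries. Some plasma cell and proliferation markers were thus at or below 3 counts in a B1a library, although the sums of both lists were higher in B1a. The part of these cells in the levels of ribosomal protein mRNAs was not tested.

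Ribosomal protein mRNAs took a larger share of the B1a libraries. The 87 genes held 5.59% and 6.19% of all counts in the B1a replicates and 3.84% and 3.98% in the B2 replicates, a mean of 5.89% ± 0.419 against 3.91% ± 0.104 (SD, n = 2 each). The groups did not overlap, and the difference of 1.98 percentage points was larger than the spread between replicates, although an exact permutation test of 2 against 2 libraries cannot go below p = 0.333. Measured per length, the share of TPM was 21.1% and 22.3% in B1a and 15.2% and 15.5% in B2. All 3 parts of the ribosome contributed: the share of counts was 1.45 times that of B2 for the large subunit, 1.55 times for the small subunit and 1.88 times for the stalk. The paralogs and copies together held only 0.0239% of the counts in B1a and 0.0265% in B2.

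**Figure D1:**
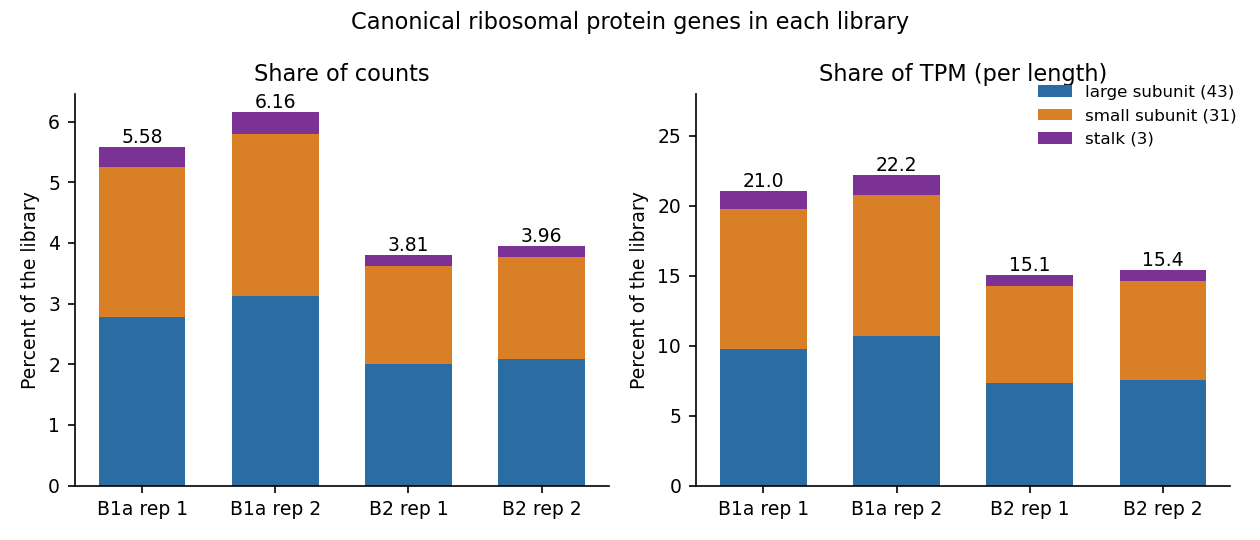
Share of each library held by the 77 canonical ribosomal protein genes, as a percent of counts (left) and of TPM (right), with 1 stacked bar per library and the summed share printed above it. Both B1a libraries lie above both B2 libraries on either scale, and the large and small subunits make up most of each bar.

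Of the 87 genes, 83 had enough counts for a test, among them all 77 canonical genes. The paralogs Rpl10l, Rpl39l, Rpl3l and the copy Rps27rt did not. By the quasi-likelihood test of edgeR, with p adjusted by Benjamini-Hochberg over all 12078 tested genes and a threshold of 0.05, 51 of the 83 were called higher in B1a cells, where 4.24% of all tested genes were called, and 0 were called higher in B2 cells, where 1.5% of all tested genes were called. No member was higher in B2 at an unadjusted p under 0.05 either (0 of 83), and DESeq2 and limma-voom also called 0. All 51 were canonical genes. In each of the 77 canonical genes both B1a libraries lay above both B2 libraries, which held for 25.3% of all tested genes, while 29.1% had both B1a libraries below both B2 libraries. On the TPM scale this separation was kept in 71 of the 77. The remaining 26 canonical genes did not pass, with log2 fold changes between 0.31 and 0.79 and adjusted p between 0.0503 and 0.332, and 23 of them had an unadjusted p under 0.05.

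The median log2 fold change (B1a over B2) of the canonical genes was 0.75, a 1.68-fold difference, with a range of 0.31 to 1.23, beside a median of -0.03 over all tested genes. Only 5 of the 51 called genes had a fold change above 2. The genes thus differed by a similar and moderate amount, and the standard deviation of the 77 log2 fold changes was 0.21. Of the 2366 other genes at a mean level of 100 CPM or more, 9.64% were called higher in B1a cells and 30.5% had both B1a libraries above both B2 libraries. Most ribosomal protein mRNAs are short, and among the 53 other genes of that level with an effective transcript length under 1000 bases the median log2 fold change was 0.42, 30.2% were called higher in B1a cells and 58.5% had both B1a libraries above. The canonical genes under 1000 bases numbered 62, of which 43 were called, with a median of 0.76. The 15 longer ones had a median of 0.62 and 8 of them were called. Other short genes of this level thus also tended to be higher in B1a, and the part of transcript length in the ribosomal protein genes was not tested. Over all tested genes the correlation of log2 fold change with log2 effective length was -0.02 (Pearson) and -0.07 (Spearman).

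The number of calls differed between fits. With limma on log2(TPM + 1) and log2(TPM + 0.1), 15 and 8 of 84 tested genes were called higher in B1a and 0 higher in B2, in fits that changed the test, the scaling and the filter together. The median over all genes moved to -0.30 and -0.32 on those scales, and the members lay 0.78 and 0.81 above it, against 0.75 in the test on counts. Without B2 replicate 1, 27 of the 83 were called, and without B1a replicate 1, 79 were called. Each of 8 genes, among them Rps12, Rplp1, Rpl36, Rplp0, Rpl32, Rps18 and Rpl39, was called in the main test and in 11 refits, and also without each library in turn.

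**Figure D2:**
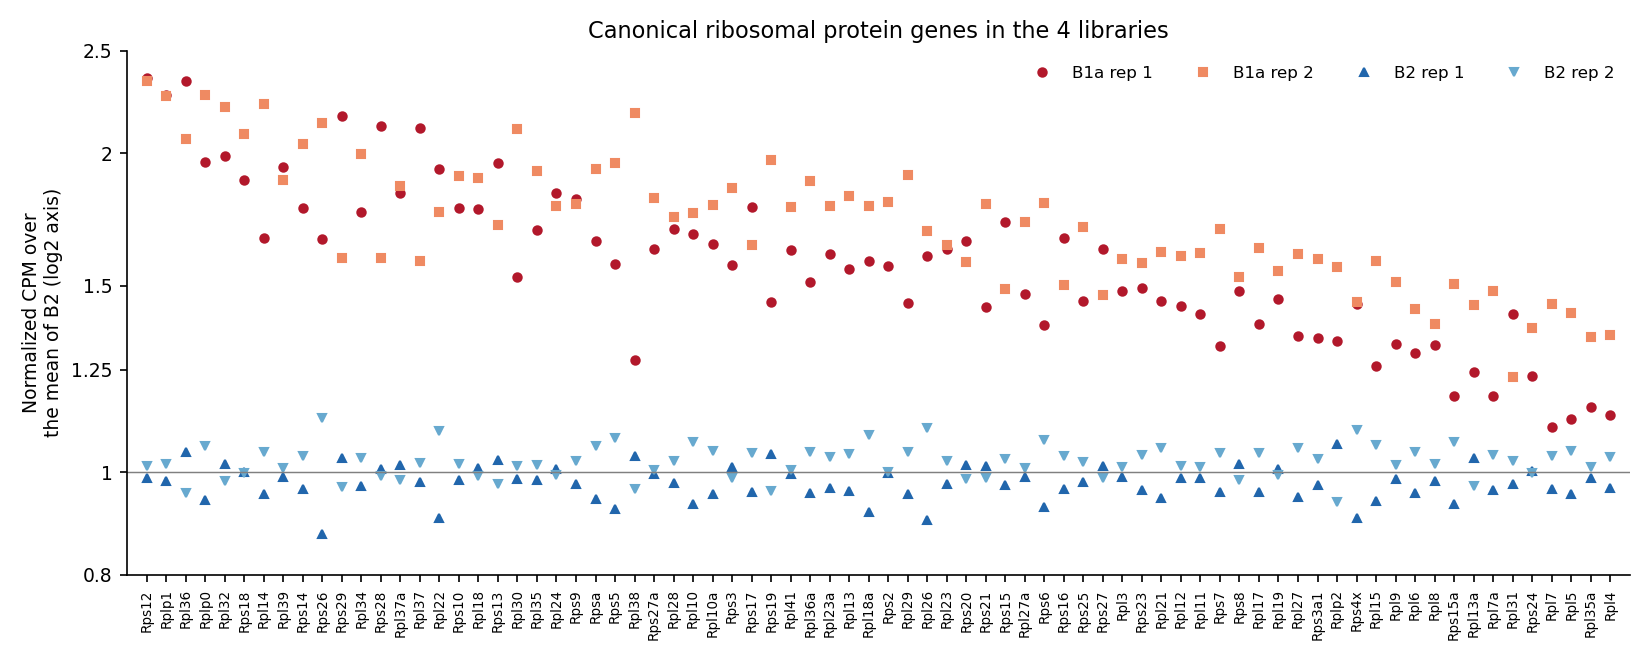
Normalized CPM of 76 of the 77 canonical ribosomal protein genes in the 4 libraries, divided by the mean of the 2 B2 libraries (log2 axis), ordered by fold change from left to right. Red and orange points are the B1a replicates and blue points the B2 replicates, and every B1a point lies above both B2 points of its gene.

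The largest difference was found for Rps12, a small subunit protein, at chr10:23785183-23787383 of GRCm38. Its level was 1216 and 1207 CPM in B1a and 509 and 522 CPM in B2. The replicates of each cell type nearly coincided and the groups were far apart, and the log2 fold change was 1.23 with a standard error (SE) of 0.10 (adjusted p = 0.00307 by the test above, as are those that follow).

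The stalk proteins stood close behind. Rplp1, at chr9:61913283-61914510, was found at 1150 and 1148 CPM in B1a and at 497 and 516 CPM in B2, a log2 fold change of 1.18 (SE 0.10, adjusted p = 0.00361). Rplp0, at chr5:115559467-115563729, the protein that anchors the stalk to the large subunit, was found at 1753 and 2032 CPM in B1a and at 842 and 947 CPM in B2, a log2 fold change of 1.08 (SE 0.12, adjusted p = 0.008). For both genes the lower B1a library lay well above the higher B2 library. Rplp2, the partner of Rplp1, was found at 494 and 579 CPM in B1a and at 394 and 348 CPM in B2. The B1a libraries were again higher, but the gene did not pass (log2 fold change 0.53, SE 0.14, adjusted p = 0.0943). Whether the folds of the stalk genes differ from each other was not tested.

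In the small subunit, 23 of 31 genes were called, with a median log2 fold change of 0.77. After Rps12 came Rps18, at chr17:33951998-33955665, a protein of the head of the small subunit, with 753 and 834 CPM in B1a and 400 and 399 CPM in B2 (log2 fold change 0.99, SE 0.11, adjusted p = 0.00785). Rps14 was found at 715 and 821 CPM in B1a and at 388 and 417 CPM in B2 (log2 fold change 0.93, adjusted p = 0.0126). In both genes the spread within a cell type was small beside the gap between the cell types. Rps26, which contacts the mRNA at the exit channel, passed more narrowly, with 507 and 651 CPM in B1a and 267 and 343 CPM in B2 (log2 fold change 0.92, SE 0.19, adjusted p = 0.0475). Its replicates differed in both cell types. The reads of Rps18 and Rps28 are divided between several entries of the same symbol, which were summed here. Rps29 and Rps28 went the other way between the B1a replicates, from 821 to 603 CPM and from 410 to 308 CPM, and still lay above B2, where Rps29 was found at 391 and 366 CPM and Rps28 at 195 and 192 CPM.

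Rpsa, the laminin receptor protein of the small subunit, had the highest CPM of the small subunit genes, with 2008 and 2349 CPM in B1a and 1145 and 1284 CPM in B2 (log2 fold change 0.84, SE 0.12, adjusted p = 0.0172). Rps6, whose protein is the substrate of the ribosomal S6 kinases, was found at 1105 and 1440 CPM in B1a and at 744 and 860 CPM in B2, and did not pass (log2 fold change 0.67, SE 0.16, adjusted p = 0.0783). Rps19, the gene most often mutated in Diamond-Blackfan anemia, likewise did not pass, at 563 and 765 CPM in B1a and 404 and 373 CPM in B2 (log2 fold change 0.77, SE 0.17, adjusted p = 0.0612). For Rps6 and Rps19 the B1a replicates were far apart, and both lay above both B2 libraries. The smallest log2 fold changes of the small subunit were those of Rps24 (0.38) and Rps15a (0.42), neither of which passed. The X-linked Rps4x, at 1171 and 1176 CPM in B1a and 735 and 890 CPM in B2, did not pass either (log2 fold change 0.53, adjusted p = 0.0755).

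In the large subunit, 26 of 43 genes were called, with a median log2 fold change of 0.74. Rpl36, at chr17:56610094-56614246, was found at 494 and 436 CPM in B1a and at 220 and 201 CPM in B2 (log2 fold change 1.14, SE 0.13, adjusted p = 0.00842). Rpl32, at chr6:115805514-115808743, was found at 669 and 745 CPM in B1a and at 343 and 330 CPM in B2 (log2 fold change 1.07, SE 0.12, adjusted p = 0.00697). Both were thus more than 2-fold higher in B1a, and with Rps12, Rplp1 and Rplp0 they were the 5 called genes above this fold. Rpl39, a small protein that lines the peptide exit tunnel, was found at 346 and 336 CPM in B1a and at 176 and 180 CPM in B2 (log2 fold change 0.94, adjusted p = 0.0117). Rpl14 was found at 537 and 718 CPM in B1a and at 308 and 337 CPM in B2 (log2 fold change 0.96, SE 0.17, adjusted p = 0.0305). Its B1a replicates differed from each other, and both lay above both B2 libraries.

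At the other end stood Rpl4, at chr9:64173387-64178562, a protein with a long extension into the exit tunnel, with 1358 and 1615 CPM in B1a and 1159 and 1241 CPM in B2. The groups did not overlap, but the gene did not pass (log2 fold change 0.31, SE 0.12, adjusted p = 0.224). Rpl35a, Rpl5 and Rpl7 followed with log2 fold changes of 0.32, 0.34 and 0.35, none of which passed. Rpl5 and Rpl11 assemble with ribosomal RNA of the central protuberance and, when free, bind Mdm2. Rpl5 was found at 930 and 1170 CPM in B1a and at 790 and 867 CPM in B2, and Rpl11 at 484 and 553 CPM in B1a and at 339 and 347 CPM in B2. Rpl11 lay just outside the threshold (log2 fold change 0.60, adjusted p = 0.0503), and Rpl30 just inside it (log2 fold change 0.86, adjusted p = 0.0498). Rpl13a, known also as a translational repressor when released from the ribosome, was found at 1273 and 1473 CPM in B1a and at 1055 and 993 CPM in B2 and did not pass (log2 fold change 0.42, adjusted p = 0.109).

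**Figure D3:**
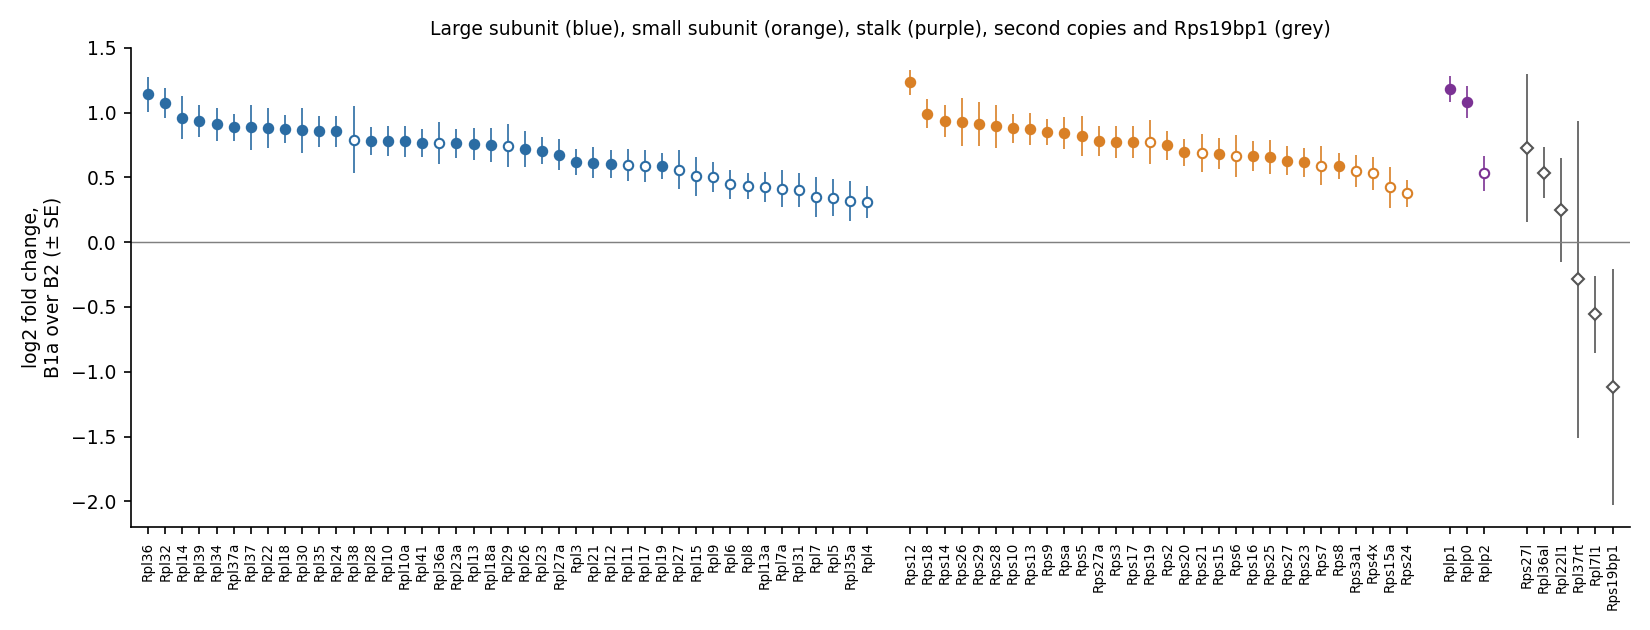
Log2 fold change (B1a over B2) with its standard error for 82 of the 83 tested genes, ordered by size within the large subunit, the small subunit, the stalk, and the paralogs with Rps19bp1. Filled symbols passed the threshold and open symbols did not; canonical genes lie between 0.31 and 1.23, whereas the paralogs and Rps19bp1 spread over both sides of 0 with wide errors.

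The start of the annotated transcripts was read for the members in a RefSeq table of promoters, to show where the TOP tract lies. The table holds 67 of the 87 genes and 57 of the 77 canonical ones, in GRCm38.p6. Of these 57, 13 (22.8%) had a C followed by at least 4 C or T at an annotated start, on the transcribed strand, against 2.89% of the tested genes and 3.01% of all 27025 genes of the table. Within 10 bases of the start, such a tract was found in 59.6% of the canonical genes, 37.3% of the tested genes and 34.4% of all genes. Among canonical genes, 6 of 35 that were called (17.1%) and 7 of 22 that were not called (31.8%) had the tract at the start. The windows below run from 10 bases before the start to 20 bases from it, on the transcribed strand, with the tract in capitals. Rps18 (chr17:33955646-33955675) and Rpl14 (chr9:120571507-120571536) are shown as called genes with a tract at the start, Rpl38 (chr11:114668570-114668599) and Rps15a (chr7:118116128-118116157) as genes with one that were not called, Rps12 (chr10:23787190-23787219) because it had the largest fold change and its tract lies downstream of the annotated start, and Rplp0 (chr5:115559457-115559486) because no tract begins within 10 bases of its start.
Rps18: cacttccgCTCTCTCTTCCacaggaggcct
Rpl14: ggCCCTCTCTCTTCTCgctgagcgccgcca
Rpl38: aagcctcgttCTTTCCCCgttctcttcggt
Rps15a: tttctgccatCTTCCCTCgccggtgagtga
Rps12: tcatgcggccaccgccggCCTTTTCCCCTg
Rplp0: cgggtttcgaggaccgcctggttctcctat
The tract was thus present in genes of large and of small fold change. Of other motifs searched on both strands of the 300-base promoters, CCGGAAG, the core bound by ETS family factors, was found in 42.1% of the canonical genes, 20.3% of the tested genes and 9.93% of all genes of the table. GCCATNTT, the core bound by Yy1, was found in 19.3%, 10.4% and 6.96%, and TATAAA in 10.5%, 8.74% and 15.7%, respectively. The share of TATAAA in the canonical genes thus lay above that of the tested genes and below that of all genes. Read on the other strand, CCGGAAG begins with a run of C and T and can overlap a tract. These are matches of letters around annotated starts, which can lie some bases away from the start used in B cells. For Rps12 and Rpl38 the window shown lies inside the annotated gene interval and not at its edge. The place of their tract relative to the start used is thus not settled.

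The order of the genes by level was alike in both cell types. Per length, Rps27 had the highest level in every library, with 7666 and 6772 TPM in B1a and 5624 and 5394 TPM in B2. Rplp1 came next in both cell types by the mean of replicates, with 6729 and 6552 TPM in B1a and 3421 and 3494 TPM in B2. Rps12 stood in place 3 in B1a (6314 and 6113 TPM) and in place 9 in B2 (3108 and 3140 TPM). The 3 leading genes of B1a did not overlap between replicates, whereas in B2 the ranges of Rps29, Rps24, Rpl12 and Rps12, in places 6 to 9, overlapped and their order is not set beyond this spread. The lowest canonical levels were those of Rps15a, at 203 and 253 TPM in B1a and 189 and 213 TPM in B2, and Rpl22, at 321 and 285 TPM in B1a and 177 and 210 TPM in B2. For Rps15a the effective length, 5063 bases, was the longest of the canonical genes, and its low place holds only per length. By CPM it lay above Rpl22, at 446 and 568 CPM in B1a and 352 and 403 CPM in B2. The median canonical gene was at 2632 and 2844 TPM in B1a and at 1895 and 1986 TPM in B2. Across the 77 genes, which are not independent replicates and share library and length, the Pearson correlation of log2 TPM was 0.97 between the B1a replicates, 0.99 between the B2 replicates, and from 0.95 to 0.97 when libraries of different cell types were paired. The largest moves in rank were those of Rplp0, from place 42 in B2 to 21 in B1a, and Rpl4, from 21 in B2 to 45 in B1a. Of the 100 genes with the highest TPM, 64 and 66 were members in the B1a libraries and 60 in each B2 library.

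The paralogs and copies were low and none of them was called. Rpl22l1, the paralog of Rpl22, was found at 23.9 and 46.9 CPM in B1a and at 30.9 and 28.9 CPM in B2, and Rpl7l1, a paralog of Rpl7 with a role in large subunit assembly, at 57.9 and 102 CPM in B1a and at 108 and 126 CPM in B2. Rpl36al, the autosomal copy of the X-linked Rpl36a, was found at 84.7 and 91.7 CPM in B1a and at 62.5 and 59.1 CPM in B2, and Rps27l, which is known as a p53 target, at 16.0 and 13.4 CPM in B1a and at 7.55 and 10.3 CPM in B2. In Rpl36al and Rps27l both B1a libraries were higher, in Rpl7l1 both were lower, in Rpl22l1 the groups overlapped, and none of the 4 passed, with adjusted p between 0.195 and 0.811. Their parents Rpl22 (289 and 264 CPM in B1a, 136 and 164 CPM in B2) and Rps27 (905 and 820 CPM in B1a, 565 and 550 CPM in B2) were both called, at adjusted p of 0.0307 and 0.0303, while Rpl36a (218 and 271 CPM in B1a, 137 and 150 CPM in B2, adjusted p = 0.0573) and Rpl7 were not. Paralog and parent can share reads, so a low paralog value may hold reads of its parent.

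Rpl37rt, a retrotransposed copy of Rpl37, was at 1.87 CPM in B1a replicate 1, at 58.8 CPM in B1a replicate 2 and at 31.2 and 42.7 CPM in B2, so its log2 fold change of -0.29 is set by a single library (adjusted p = 0.931). Without B1a replicate 1 the value was 0.66. The parent Rpl37 went the other way between the B1a replicates, at 334 and 250 CPM, and was at 155 and 161 CPM in B2. Rpl37 was called higher in B1a (log2 fold change 0.89, adjusted p = 0.0455). How the division of reads between Rpl37 and Rpl37rt bears on these values was not tested. Rps19bp1 was found at 4.21 and 3.15 CPM in B1a and at 9.98 and 6.06 CPM in B2, the lowest log2 fold change of the tested genes of this group (-1.12, SE 0.91, adjusted p = 0.574). Rpl10l and Rpl39l, paralogs known from the testis, had 0 counts in every library, which allows up to between 0.161 and 0.272 CPM. Rpl3l, known from muscle, had 2 counts in B2 replicate 1 and 0 elsewhere, and Rps27rt had 45.5 counts in B2 replicate 1, 4.30 in B1a replicate 2 and 0 in the others.

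The B1a replicates differed from each other more than the B2 replicates. The ratio of replicate 2 to replicate 1 over the canonical genes had a median of 1.11 in B1a with a range of 0.735 to 1.71, and a median of 1.05 in B2 with a range of 0.883 to 1.29. The highest B1a ratio was that of Rpl38, at 237 and 405 CPM in B1a and 192 and 179 CPM in B2. Both B1a libraries were above B2, and the gene did not pass (log2 fold change 0.79, SE 0.26, adjusted p = 0.159). Over all 2443 tested genes of at least 100 CPM the same ratio ranged from 0.266 to 388 in B1a and from 0.429 to 2.66 in B2, with a standard deviation of the log2 ratio in B1a of 0.41, against 0.21 for the canonical genes.

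Shorter transcripts tended to have the larger fold change. Across the 77 canonical genes, the correlation of the log2 fold change with log2 effective length was -0.40 (Pearson) and -0.43 (Spearman), against -0.02 and -0.07 over all tested genes, given as a description over genes of the same libraries. The ratio between replicates of the same cell type also ran with length in these genes, with correlations of 0.44 and 0.46 for B2 replicate 2 over 1 and of 0.22 and 0.28 for B1a replicate 2 over 1. A correlation with length of similar magnitude was thus also found between B2 replicates, where the sign depends on the order of the replicates. The log2 ratios between B2 replicates spread less, with a standard deviation of 0.10 against 0.21 for the log2 fold changes. Split at their median length of 629.5 bases, the 38 shorter genes had a median log2 fold change of 0.82 with 31 called, and the 39 longer genes had a median of 0.61 with 20 called.

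**Figure D4:**
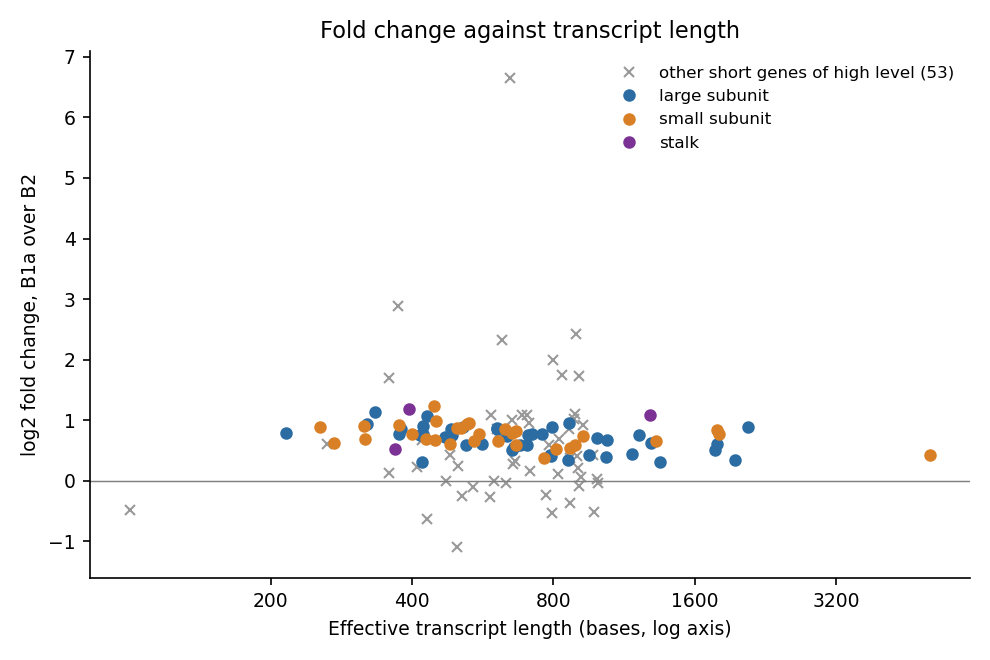
Log2 fold change (B1a over B2) against effective transcript length in bases (log axis) for the 77 canonical ribosomal protein genes, colored by part of the ribosome, and for the 53 other genes of at least 100 CPM under 1000 bases (crosses). Every ribosomal protein gene lies above 0, whereas the crosses spread to both sides of 0 around a median of 0.42, up to 6.65.

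Ribosomal proteins also come from genes whose symbols fall outside the rule. Gnb2l1 (Rack1), a scaffold on the head of the small subunit, was found at 1004 and 1216 CPM in B1a and at 632 and 734 CPM in B2 and was called (log2 fold change 0.70, SE 0.14, adjusted p = 0.0487). Fau, which encodes a ubiquitin-like protein fused to a small subunit protein, was found at 770 and 742 CPM in B1a and at 665 and 612 CPM in B2 (log2 fold change 0.24, adjusted p = 0.275). In both genes the B1a libraries were the higher ones, and Fau did not pass.

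Factors that work on the ribosome were counted in the same way, where 4.24% of all tested genes and 9.64% of the other genes at 100 CPM or more were called higher in B1a. Of 9 elongation and termination factors, 2 were called higher in B1a and 0 higher in B2, with a median log2 fold change of 0.48. These were Eef1b2, a nucleotide exchange factor of elongation factor 1, at 394 and 432 CPM in B1a and 222 and 212 CPM in B2 (log2 fold change 0.93, adjusted p = 0.0131), and its partner Eef1g (log2 fold change 0.67, adjusted p = 0.0323). Eef1a1, which brings aminoacyl-tRNA to the ribosome, was found at 6675 and 8179 CPM in B1a and at 5056 and 5597 CPM in B2 and did not pass (log2 fold change 0.48, adjusted p = 0.0951), nor did the translocase Eef2 (log2 fold change 0.38, adjusted p = 0.124). Of 30 initiation factors, Eif3i, Eif4b and Eif3f were called higher in B1a with log2 fold changes of 1.01, 0.65 and 0.62, 0 were called higher in B2 and the median was 0.10. The 3 of 30 (10%) lie near the 9.64% above, although some of the 30 factors lie below 100 CPM. Of 9 tested mRNAs from a list of other TOP transcripts, 4 were called higher in B1a and 0 higher in B2. These were Vim, the intermediate filament vimentin, with the largest log2 fold change of the list (3.13, adjusted p = 0.00178), Pfdn5 (0.85), Nap1l1 (0.77) and Tpt1 (0.69), with a median of 0.41 over the list.

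Listed genes that build the ribosome were examined next. Of 36 processome and snoRNP genes, 42 large subunit assembly genes and 15 RNA polymerase I genes, 0 were called by edgeR in either direction, with median log2 fold changes of 0.05, -0.12 and -0.41. With 4.24% and 1.5% of all tested genes called, lists of this size hold few calls by background alone. At an unadjusted p under 0.05, 2, 1 and 2 genes of these lists were higher in B1a and 1, 3 and 0 higher in B2, and DESeq2 and limma-voom each called 1 gene, of the RNA polymerase I list, higher in B1a. Fbl, the methyltransferase of box C/D snoRNPs, was found at 49.5 and 96.1 CPM in B1a and at 67.5 and 69.1 CPM in B2, and Ncl, nucleolin, at 486 and 692 CPM in B1a and at 620 and 602 CPM in B2. In both genes the groups overlapped. Npm1, nucleophosmin, was found at 292 and 487 CPM in B1a and at 271 and 284 CPM in B2, and did not pass (log2 fold change 0.49, adjusted p = 0.336). The 77 tested genes of the mitochondrial ribosome, which carry out translation in a separate compartment, had a median log2 fold change of -0.05, 0 were called by edgeR and limma-voom and 1 by DESeq2, 2 had an unadjusted p under 0.05, and both B1a libraries lay above both B2 libraries in 12 and below them in 17 (25.3% and 29.1% of all tested genes).

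**Figure D5:**
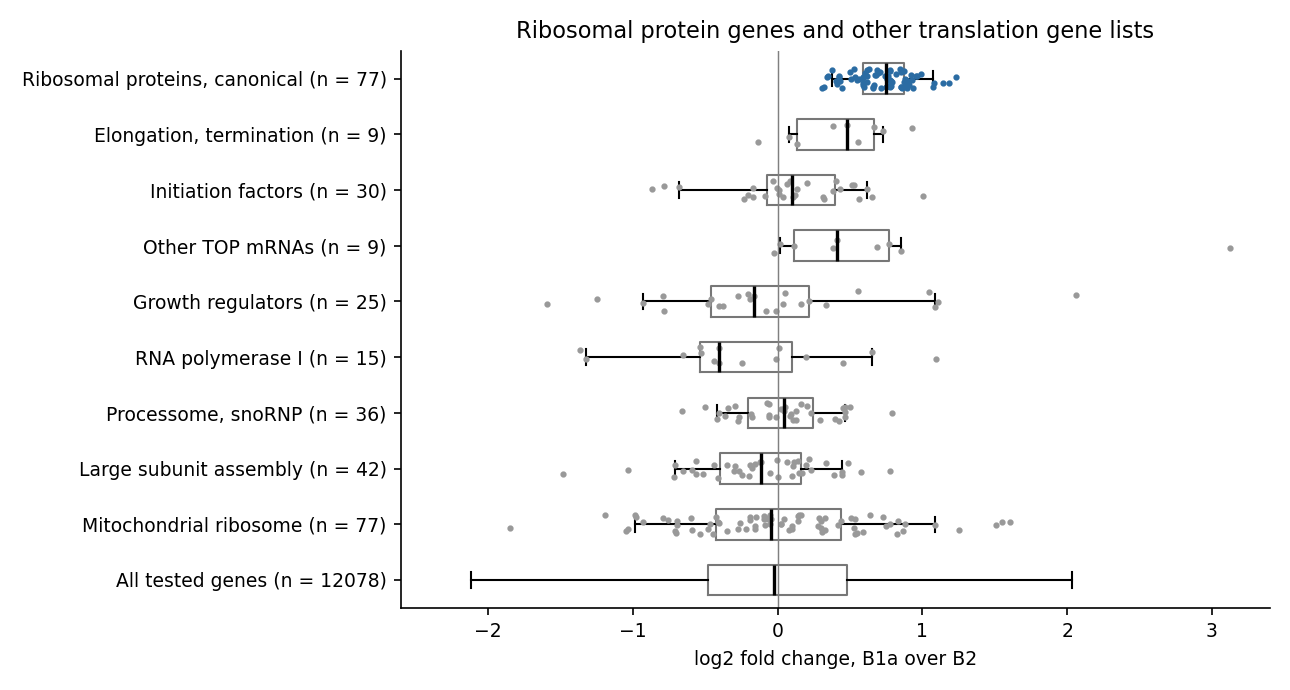
Log2 fold change (B1a over B2) of the canonical ribosomal protein genes and of other lists of translation genes, with 1 point per gene, a box from the lower to the upper quartile, a line at the median and whiskers from the 5th to the 95th percentile. For all tested genes the box alone is drawn. The median of the ribosomal protein genes is 0.75, and those of the assembly, RNA polymerase I and mitochondrial lists lie between -0.41 and 0.05.

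Among 25 tested regulators of growth and ribosomal protein synthesis, 2 were called higher in B1a and 1 higher in B2, with a median log2 fold change of -0.16. Over all tested genes, 4.24% were called higher in B1a and 1.5% higher in B2. The 2 of 25 (8%) lie between the 4.24% of all tested genes and the 9.64% of other genes at 100 CPM or more. The listed genes fall on both sides of that level, so the calls are given as single genes. Myc was found at 363 and 456 CPM in B1a and at 87.0 and 109 CPM in B2, a log2 fold change of 2.06 (SE 0.19, adjusted p = 0.0042). Rps6ka1, a kinase of the MAP kinase pathway, was likewise higher in B1a (log2 fold change 1.11, adjusted p = 0.0135). Rictor, the defining subunit of mTOR complex 2, was at 90.3 and 96.9 CPM in B1a and 223 and 222 CPM in B2 (log2 fold change -1.25, SE 0.14, adjusted p = 0.00842). Neither Mtor (log2 fold change -0.28, adjusted p = 0.374) nor Larp1 (log2 fold change 0.34, adjusted p = 0.36) passed. At an unadjusted p under 0.05, 3 of the 25 regulators were higher in B1a and 4 higher in B2. DESeq2 called 2 in each direction, and limma-voom called 2 higher in B1a and 1 higher in B2. Of the 8 genes of the Mdm2 and Trp53 axis, which responds to free ribosomal proteins, 0 were called by edgeR, DESeq2 or limma-voom, 1 had an unadjusted p under 0.05, and the median was 0.39.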

How the data were processed

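RNA-Seq libraries of wild-type B1a (n = 2) and B2 (n = 2) cells were analyzed. The authors aligned reads to mm10, quantified RefSeq genes with RSEM and deposited expected counts for 21970 gene entries, unnormalized, in which reads shared between entries are divided. RSEM is given as version 1.2.29 in the submitters' processing notes, which differs from the methods of the paper. The labels name a kit with ribosomal RNA depletion. The methods name a stranded kit, and the discussion of the paper states that polyadenylated RNA was enriched. Which of these holds for the libraries is not settled here. The deposited TPM values are scaled per length and to a common total, and the deposited posterior SD, a signal-type value, was at most 1.63% of the count for canonical genes with 1 entry. For Rps18, Rps28, Rps10 and Rpl10a, whose reads are divided between several entries, it was 26.9%, 41.7%, 32.3% and 33.0% when the entries' variances are added, without the covariance between entries, and for Rpl37rt it was 93.7%. The deposited effective length was used as given and FPKM was not used.

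Expected counts were summed by symbol (4 members have several entries), rounded, filtered with filterByExpr, scaled by TMM (factors 0.964, 0.963, 1.05 and 1.03) and tested with edgeR 4.0.16 (R 4.3.3) by the quasi-likelihood test without a block, with Benjamini-Hochberg adjustment over all 12078 genes and a threshold of 0.05. The biological coefficient of variation was 0.507. The paper's methods name EBSeq, which was not run. Standard errors were derived from the F statistic. Where nothing else is said, p-values rest on the spread between these libraries, with the variance of each gene moderated by that of the other genes. A floor of 3 counts covers counting error only. Alternatives used DESeq2 1.42.0 and limma 3.58.1. The test was tested on simulated data with known changes.

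The members and gene lists were chosen with earlier results of these data known. Named genes are the called members with the largest fold changes (12 in each direction), the 5 largest and smallest fold changes, the 5 highest and lowest levels, paralogs with their parents, members with known roles, called genes of the lists and the least reproducible members. Rps28, Rpl35a, Rps24 and Rps15a, and the comparison with other short genes, were added after their values were seen. Promoters come from RefSeq, GRCm38.p6, and were matched by symbol. A few items are not reported here.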

Additional observations from a re-analysis of the deposited data

How the results depend on the processing

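Of the 83 tested members, between 34 and 72 were called higher in B1a in the refits by DESeq2, limma-voom, other count filters, unsummed entries and other scalings of the counts, and 15 and 8 with limma on log2(TPM + 1) and log2(TPM + 0.1). Leaving out 1 library each gave between 27 and 79, with a lone library assumed to vary like the other cell type. The count called higher in B2 stayed at 0, apart from 1 (Rpl37rt) with the replicate block and between 0 and 2 with a library left out. The replicate block gave 74 members higher in B1a and 1481 genes in all. The labels tie the numbers to no shared animal or day, and 2 pairs cannot settle a pairing: deviations of the libraries numbered 1 had a correlation of -0.003 over all tested genes and 0.34 over members. The count over all genes, 693 (73.9% higher in B1a), was 1562 with DESeq2 (64.7%), 1141 without a filter beyond 1 count, 359 with log2(TPM + 0.1) (54.6%), 656 with library totals (62.5%), 499 with log2(TPM + 1) (53.3%), and between 547 and 6241 with a library left out. The median log2 fold change of the members, 0.72, was 0.62 with library totals, where the median of all genes was -0.13, and 0.49 on both TPM scales. It lay between 0.65 and 0.76 with a library left out. The differences in share stayed within the replicate spread, between 1.68 and 2.28 percentage points of counts and between 5.77 and 6.94 of TPM with a library left out. The separation of all 77 canonical genes, an alternative set chosen after seeing the data, held for 76 with library totals and posterior mean counts. Among named genes, 591 of 707 alternative values kept direction and call, and 5 turned sign, each not called. With library totals Fbl was at -0.015, and on the TPM scales, log2(TPM + 0.1) and log2(TPM + 1), Fbl was at -0.23 and -0.22 and Rpl22l1 at -0.075 and -0.074. With a library left out, Fbl ranged from -0.46 to 0.49, Rpl22l1 from -0.32 to 0.65, Ncl from -0.33 to 0.18 and Rpl37rt from -4.29 to 0.66, the extremes being those without 1 of the B1a replicates. The cause was not tested. Without each library in turn, 26 members were called every time.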
